A study of Homo sapiens and Mus musculus with 36 samples.

Results

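Small nucleolar RNA (snoRNA), Cajal body RNA (scaRNA) and spliceosomal RNA genes were followed through DOT1L loss in HuH-7, a human hepatocellular carcinoma cell line. Members were the symbols starting with SNORA, SNORD, SCARNA or RNU and a digit, plus RN7SK, RMRP and RPPH1, with a mean of at least 1 CPM (counts scaled to a common library size) over the 6 HuH-7 guide libraries without interferon (IFN). Of 485 matching symbols among the 26457 in those files, 167 were members, namely 78 SNORD, 60 SNORA, 13 SCARNA and 13 RNU genes and the 3 named RNAs, while 191 of the 485 had no counts. Members were thus chosen by their level over all 6 libraries, knockout and sgNeg2 together, and levels are given as a description. In mean CPM relative to the library total, 158 members reached the threshold in both the knockout and sgNeg2 libraries, 7 in the knockout alone and 2 in sgNeg2 alone. SNORD27 and SNORD11 lay just above the threshold, and SNORD55 and SNORD42B just below it.

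The series holds counts per gene symbol for 36 RNA sequencing libraries in 17 groups. The knockout groups of HuH-7 were edited with DOT1L guide sg1 or sg2 and compared with cells that carry the control guide sgNeg2, labelled WT, with 2 libraries per guide, once without IFN and once with IFN, whose type and dose the sources used here do not give. In 3 libraries each, HuH-7 was treated for 7 days with EPZ-5676, which inhibits DOT1L, or with DMSO for a time not stated. The mouse liver tumour lines Hepa1-6 and Hep53.4 and the mouse Lewis lung carcinoma line LLC carried Dot1l guide sg1, Dot1l guide sg2 or sgNeg2. DOT1L is the histone H3 lysine methyltransferase that the guides target. Whether an edited line is a pool or a clone, and whether libraries of a group came from separate cultures, is not stated, so p-values measure the spread between these libraries, which may be technical.

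SnoRNAs are short nuclear RNAs that are mostly cut from introns of host genes. Box C/D snoRNAs (SNORD) guide methylation of ribosomal RNA with fibrillarin, NOP56 and NOP58, and box H/ACA snoRNAs (SNORA) guide pseudouridylation with dyskerin (DKC1), GAR1 and their partners. ScaRNAs do the same for spliceosomal RNAs in Cajal bodies. RN7SK holds the elongation kinase P-TEFb inactive, RMRP and RPPH1 are the RNA cores of RNase MRP and RNase P, and all 3 are made by RNA polymerase III. None of these RNAs carries a poly(A) tail as its mature form.

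The 5 members that fell in the knockout without IFN are shown first, followed by 2 that fell with IFN and 1 that rose with EPZ-5676, as the DNA letters of their GENCODE 29 transcripts (GRCh38). Capitals mark the C box TGATGA and the D box CTGA in SNORD17, SCARNA6 and SNORD14A, the H box ANANNA nearest the middle and the ACA box near the 3′ end in SNORA73A, SNORA52 and SNORA9, the ACA box alone in SNORA57, where the H box letters were not found in the window searched, and GTAGTA, the U2 stretch that pairs with the intron branch site, in RNU2-2P.
SNORD17: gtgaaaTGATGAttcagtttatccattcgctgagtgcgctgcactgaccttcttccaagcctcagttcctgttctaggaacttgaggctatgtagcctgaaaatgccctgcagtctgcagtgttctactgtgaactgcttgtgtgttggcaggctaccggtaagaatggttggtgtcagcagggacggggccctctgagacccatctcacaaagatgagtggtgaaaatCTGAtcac
SNORA73A: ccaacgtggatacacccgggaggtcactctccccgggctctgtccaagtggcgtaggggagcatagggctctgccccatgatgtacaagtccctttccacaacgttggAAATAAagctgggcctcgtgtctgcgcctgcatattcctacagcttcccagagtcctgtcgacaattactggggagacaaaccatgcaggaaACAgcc
SNORA57: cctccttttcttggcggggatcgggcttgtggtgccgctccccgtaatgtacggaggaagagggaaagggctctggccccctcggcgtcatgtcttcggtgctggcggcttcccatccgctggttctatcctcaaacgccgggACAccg
SCARNA6: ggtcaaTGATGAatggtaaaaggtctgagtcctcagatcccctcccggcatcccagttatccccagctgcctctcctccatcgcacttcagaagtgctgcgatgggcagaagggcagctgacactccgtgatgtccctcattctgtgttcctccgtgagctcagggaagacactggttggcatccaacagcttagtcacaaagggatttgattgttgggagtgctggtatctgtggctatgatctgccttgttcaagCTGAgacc
RNU2-2P: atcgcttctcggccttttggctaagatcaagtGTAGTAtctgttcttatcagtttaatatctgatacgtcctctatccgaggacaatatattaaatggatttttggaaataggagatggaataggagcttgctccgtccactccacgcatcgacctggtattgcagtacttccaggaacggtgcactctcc
SNORD14A: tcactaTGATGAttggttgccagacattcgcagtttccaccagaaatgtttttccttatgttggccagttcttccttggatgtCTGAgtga
SNORA52: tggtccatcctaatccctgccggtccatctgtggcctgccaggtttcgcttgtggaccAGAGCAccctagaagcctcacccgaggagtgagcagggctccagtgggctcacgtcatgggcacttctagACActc
SNORA9: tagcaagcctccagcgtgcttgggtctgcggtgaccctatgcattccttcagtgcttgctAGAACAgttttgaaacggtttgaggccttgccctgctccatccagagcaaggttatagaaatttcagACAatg
SNORD17 lies at chr20:17962710-17962946 on the minus strand, in an intron of SNX5. SNORA73A lies at chr1:28507366-28507571 on the plus strand, in the span of SNHG3 and in an exon of some of its transcripts. SNORA57 lies at chr11:62665422-62665570 on the plus strand, in an exon of some METTL12 transcripts, and LBHD1 overlaps it on the other strand. SCARNA6 lies at chr2:233288676-233288940 on the plus strand, in an intron of ATG16L1. RNU2-2P lies at chr11:62841619-62841809 on the minus strand, in the span of WDR74 and in an exon of some of its transcripts. SNORD14A lies at chr11:17074654-17074744 on the minus strand in an intron of RPS13, SNORA52 at chr11:811681-811814 on the plus strand in the span of RPLP2, and SNORA9 at chr7:44985378-44985510 on the minus strand in the span of SNHG15.
The C and D boxes stood within the first 20 and last 24 bases in 45 of 68 SNORD members with a sequence (66.2%), and in 22.7% of all 992 GENCODE snoRNA and scaRNA transcripts. An H box in the middle and an ACA box within the last 8 bases were found in 48 of 55 SNORA members (87.3%), and in 32.6% of the same 992 transcripts. The 992 transcripts mix box C/D and box H/ACA RNAs, so their shares are no yardstick for members of a single class. Searches used the transcript strand, and absent letters say nothing of whether the RNA is functional.

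Of the 167 members, 162 could be placed on GRCh38, and 148 of these lay within another gene on the same strand. Of the 148, 60 lay in an intron of every host transcript, 85 in an exon of some transcripts and 3 in an exon of every transcript. The strand setting of the counting is not given, so reads of a member and of a host exon or an antisense gene cannot be told apart, and an antisense gene overlapped 16 members. The 14 members with no host were RN7SK, RMRP, RPPH1, SCARNA2, SNORD3A, SNORD3C, SNORD13 and 7 spliceosomal RNA genes. SNORA73A and SNORA73B match over 94.6% of the shorter sequence and RNU4-1 and RNU4-2 over 97.2%, so the split of reads within each pair is uncertain, as it is among the copies of U3 (SNORD3A, SNORD3C and SNORD3D).

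Library totals were 19580588 to 22649969 counts without IFN, 47594968 to 61227426 with IFN, 48912627 to 58628528 for EPZ-5676 and DMSO, and 42637155 to 59686358 in mouse lines. DOT1L itself had 35.6 and 32.1 CPM in sg1 libraries and 40.4 and 34.8 CPM in sg2 libraries, against 75.4 and 73.1 CPM in sgNeg2 libraries without IFN (log2 change -1.06 ± 0.16 SE, adjusted p = 0.000942). DOT1L transcript was also lower in every knockout library of the other 4 settings than in their sgNeg2 libraries. The 8 liver markers examined summed to 13014 to 15149 CPM in the knockout and 16015 to 16064 CPM in sgNeg2 libraries without IFN. Single markers went in both directions. ALB had 2030 to 2526 CPM in the knockout, against 2982 and 3004 CPM in sgNeg2. AFP had 548 to 656 CPM in the knockout, against 329 and 331 CPM in sgNeg2. The 3 endothelial markers summed to 15.8 to 18.3 CPM in the knockout and 8.61 to 9.67 CPM in sgNeg2, nearly all of it PECAM1, and leukocyte, fibroblast and lung markers stayed below 5 CPM in each library. The part of these marker differences in the member values was not tested.

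Member RNAs took a large share of the libraries without IFN. They held 2.85 and 2.97% of counts in sg1 libraries and 2.83 and 1.87% in sg2 libraries, against 2.99 and 3.41% in sgNeg2 libraries. All 4 knockout libraries lay below both sgNeg2 libraries, and replicate 2 of sg2 stood apart at the low end. RN7SK, RMRP and RPPH1 made up 89.8% of the summed member CPM. Without these 3 RNAs, the share was 0.274 and 0.270% in sg1 and 0.296 and 0.244% in sg2 libraries, against 0.309 and 0.375% in sgNeg2 libraries. The ratio of mean shares, knockout over sgNeg2, was 0.821 for all members, 0.775 for SNORD, 0.817 for SNORA, 0.827 for SCARNA and 0.740 for RNU genes. A share falls when these RNAs become fewer and when other RNAs become more abundant, and in bulk samples fewer cells of a type and less RNA per cell cannot be told apart.

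**Figure D1:**
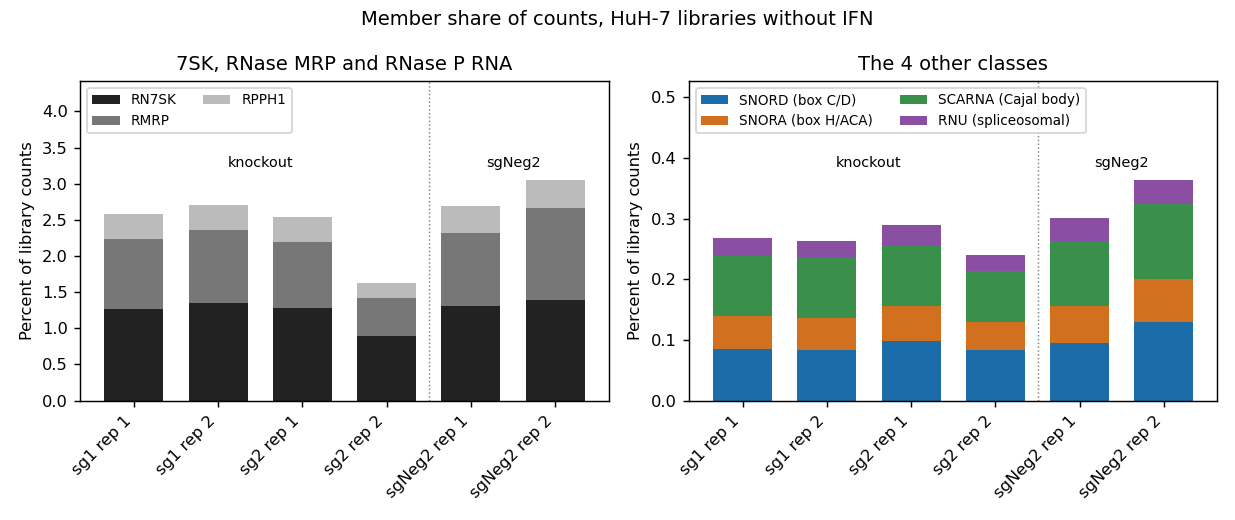
Percent of library counts in the members, by library, in HuH-7 without IFN, with stacked bars for RN7SK, RMRP and RPPH1 (left) and for the 4 other classes (right). Replicate 2 of sg2 is lowest in both panels and replicate 2 of sgNeg2 is highest, with a total of 1.87% against 3.41%.

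Levels spanned a wide range. Per kilobase of annotated length, RN7SK averaged 35002 CPM over the 6 libraries, RMRP 32755 and RPPH1 9112. U3 (SNORD3A), which guides early cleavage of the ribosomal RNA precursor, followed at 1543 CPM per kilobase and SCARNA10, a guide for the spliceosomal U5 RNA, at 1375. The 71 members under 120 bases had a median of 24.8 CPM per kilobase. The 69 members of 120 to below 190 bases had a median of 23.5. The 22 members of 190 bases or more had a median of 345. These length boundaries were chosen after the values had been seen, so they serve as a description.

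In the knockout without IFN, 5 members fell and 0 rose among the 167, all of which were tested (edgeR quasi-likelihood test, Benjamini-Hochberg adjusted over 16448 genes). Over all genes tested 4.38% fell and 6.95% rose, so 5 of 167 (2.99%) is a share near the background and no rise among members is below it. At an unadjusted p under 0.05, 23 members were lower and 2 higher, against 1938 lower and 2312 higher among the 16448 genes tested. The share of lower members was near that of all genes, and the share of higher ones was below it. DESeq2 called 15 members lower and 0 higher, where it called 8.81% of all genes lower and 7.86% higher. The median log2 change was -0.16 over the members and 0.00295 over all genes tested. Below 0 were 110 of the 167 members and 8149 of the 16448 genes tested. The knockout libraries lay entirely below the sgNeg2 libraries for 38 members (22.8%, against 22.8% of all genes tested) and entirely above for 13 (7.78%, against 23.1%).

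SNORD17, a box C/D snoRNA, had 75.3 and 75.9 CPM in sg1 and 77.0 and 37.6 CPM in sg2 libraries, against 106 and 145 CPM in sgNeg2 libraries. The groups did not overlap, and replicate 2 of sg2 was far below the other knockout libraries. Its log2 change was -0.92 ± 0.21 (SE, adjusted p = 0.0142). SNORA73A, the U17 snoRNA, whose yeast counterpart is needed for 18S ribosomal RNA, had 144 and 146 CPM in sg1 and 159 and 94.9 CPM in sg2, against 187 and 226 CPM in sgNeg2. The groups did not overlap (log2 change -0.60 ± 0.17, adjusted p = 0.0343). Its near copy SNORA73B had 102 and 106 CPM in sg1 and 114 and 85.4 CPM in sg2, against 118 and 151 CPM in sgNeg2, and missed the threshold (-0.40 ± 0.13, adjusted p = 0.0583).

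SNORA57, a pseudouridylation guide, had 9.68 and 8.54 CPM in sg1 and 11.0 and 7.21 CPM in sg2, against 13.3 and 15.6 CPM in sgNeg2. All knockout values lay below both sgNeg2 values (log2 change -0.66 ± 0.17, adjusted p = 0.0259). SCARNA6, a guide for U5, had 32.9 and 32.6 CPM in sg1 and 36.1 and 31.5 CPM in sg2, against 43.3 and 56.1 CPM in sgNeg2. Its knockout libraries were close together, and the sgNeg2 libraries were both higher (-0.58 ± 0.15, adjusted p = 0.0243). RNU2-2P, a copy of the U2 spliceosomal RNA, had 120 and 110 CPM in sg1 and 150 and 150 CPM in sg2, against 169 and 208 CPM in sgNeg2 (-0.51 ± 0.14, adjusted p = 0.0327). Here the sg1 libraries were the lowest.

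The number of calls moved when a library was left out. A fit without an sgNeg2 library leaves 1 in that group, and its spread is assumed to be like that of the other groups, so a call can be lost there with no smaller fold. Without replicate 2 of sgNeg2, 0 members were called in this comparison by edgeR (9 lower and 0 higher at an unadjusted p under 0.05), and without replicate 1 of sgNeg2 2 fell. Without replicate 2 of sgNeg2, the log2 changes of the 5 called members were all smaller in size than with all libraries. They were -0.72 for SNORD17, -0.51 for SNORA73A, -0.59 for SNORA57, -0.43 for SCARNA6 and -0.40 for RNU2-2P. Without replicate 1 of sgNeg2 they were all larger in size, at -1.13, -0.74, -0.77, -0.75 and -0.65 in the same order. Without replicate 1 of sg1 1 fell, without replicate 1 of sg2 8 fell, and without replicate 2 of sg2 5 fell. Replicate 2 of sgNeg2 was the highest of the 6 libraries for 58 members and replicate 2 of sg2 the lowest for 60. With both of these left out, an alternative chosen after seeing the data, SNORD17 alone was called (log2 change -0.53). The fit with the 6 libraries alone called 10 lower and 2 higher (SNORA32 and SNORD101), and SNORD17 and SNORA73A were not among them.

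**Figure D2:**
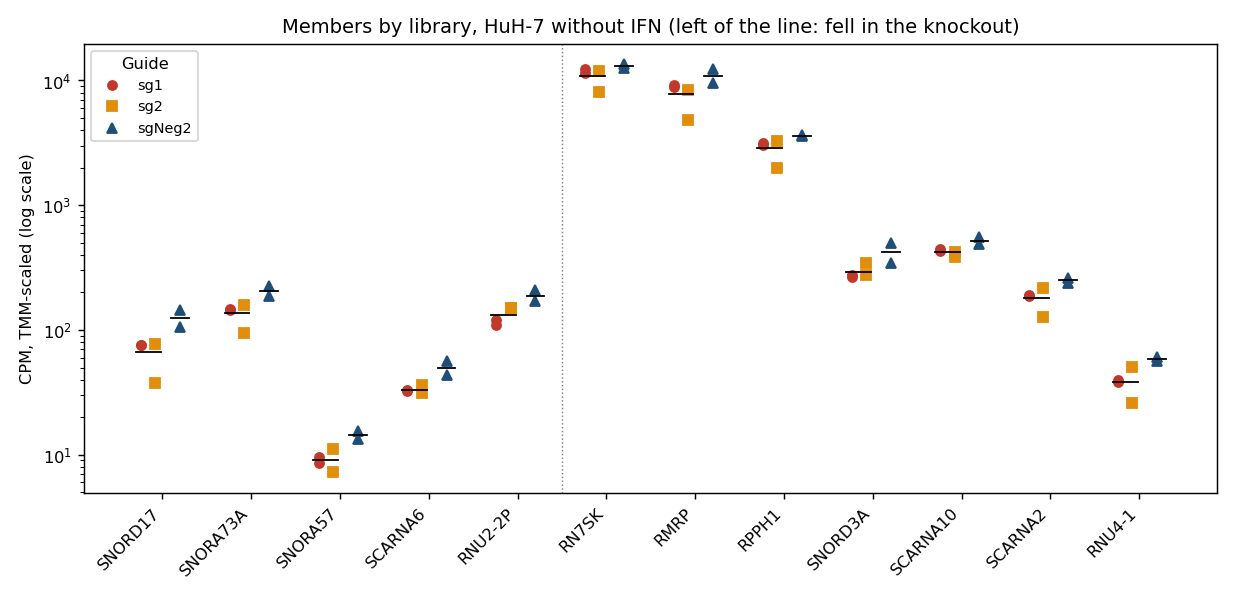
CPM on a log axis in each HuH-7 library without IFN for the 5 members that fell (left of the dotted line) and 7 others named for their level. Circles are sg1, squares sg2 and triangles sgNeg2, and black bars are means over 4 knockout and 2 sgNeg2 libraries; SNORD17 averaged 66.4 CPM in the knockout and 126 CPM in sgNeg2.

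The 3 polymerase III RNAs were lower in all knockout libraries but did not pass the test. RN7SK had 11501 and 12364 CPM in sg1 and 11808 and 8094 CPM in sg2, against 12496 and 13459 CPM in sgNeg2 (log2 change -0.25 ± 0.17, adjusted p = 0.385). RMRP had 8845 and 9198 CPM in sg1 and 8404 and 4782 CPM in sg2, against 9569 and 12264 CPM in sgNeg2 (-0.48 ± 0.22, adjusted p = 0.176). RPPH1 had 3057 and 3126 CPM in sg1 and 3247 and 1973 CPM in sg2, against 3558 and 3682 CPM in sgNeg2 (-0.34 ± 0.19, adjusted p = 0.282). In each of the 3, replicate 2 of sg2 was far below the other knockout libraries.

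Among the highest box C/D RNAs, SNORD3A averaged 291 ± 35.6 CPM in the knockout (SD, n = 4) and 422 ± 108 CPM in sgNeg2 (n = 2), with a log2 change of -0.54 ± 0.17 and an adjusted p of 0.0584 from edgeR. SNORD3D averaged 196 ± 18.9 and 266 ± 78.0 CPM in the knockout and in sgNeg2 (adjusted p = 0.102 in edgeR). SNORD3C averaged 41.5 ± 9.01 and 51.6 ± 17.1 CPM in the knockout and in sgNeg2 (adjusted p = 0.367 in edgeR). For SNORD3D and SNORD3C the groups overlapped. The H/ACA snoRNA SNORA12 averaged 27.2 ± 1.91 CPM in the knockout and 32.6 ± 5.37 CPM in sgNeg2, and SNORA53 19.1 ± 2.74 and 20.8 ± 4.95 CPM in the same order, also with overlap and adjusted p of 0.543 and 0.787 in edgeR.

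All 13 SCARNA members had a log2 change below 0, with a median of -0.31, and 1 was called. SCARNA10 had 430 and 445 CPM in sg1 and 422 and 384 CPM in sg2, against 485 and 556 CPM in sgNeg2 (log2 change -0.31 ± 0.10, adjusted p = 0.0603). SCARNA2, a methylation guide for U2 with its own transcription unit, had 186 and 192 CPM in sg1 and 218 and 126 CPM in sg2, against 236 and 263 CPM in sgNeg2 (-0.47 ± 0.17, adjusted p = 0.105). SCARNA5 averaged 85.9 ± 1.21 CPM in the knockout and 101 ± 20.9 CPM in sgNeg2, with overlap, and SCARNA12 averaged 62.1 ± 8.81 and 75.8 ± 10.5 CPM in the knockout and in sgNeg2.

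Of the 13 RNU genes, 10 were below 0 with a median of -0.46, and 1 was called. This class was set by symbol alone, so a gene in it need not be a spliceosomal RNA. The U4 gene RNU4-1 had 38.2 and 40.0 CPM in sg1 and 50.1 and 25.9 CPM in sg2, against 61.3 and 56.6 CPM in sgNeg2 (log2 change -0.61 ± 0.23, adjusted p = 0.104). RNU4-2 averaged 25.9 ± 7.08 CPM in the knockout and 36.5 ± 1.81 CPM in sgNeg2 (-0.49 ± 0.22, adjusted p = 0.182 in edgeR). The U5 gene RNU5E-1 averaged 14.7 ± 4.57 and 24.9 ± 2.83 CPM in the knockout and in sgNeg2 (-0.76 ± 0.27, adjusted p = 0.108 in edgeR). The groups did not overlap in these 3 genes, and the lowest library was replicate 2 of sg2.

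Longer members had lower log2 changes without IFN. All 22 members of 190 bases or more were below 0, with a median of -0.42, and 84 of the 140 placed members under 190 bases were below 0, with a median of -0.11. Across the 162 placed members, Spearman's rho between length and log2 change was -0.33, a description over genes that share their libraries. In 21 of these 22 members the highest library was replicate 2 of sgNeg2, and in 12 the lowest was replicate 2 of sg2. Of the 5 called members, 4 are in the longer set and SNORA57 is not. Members of 190 bases or more also had a higher median level per kilobase. The 14 members with no host had a median log2 change of -0.43, against -0.12 for the 142 within a counted gene. The part of length, level and host in these changes was not tested. In the knockout with IFN, where the long members have few counts, 11 of the 22 were above 0 and 10 below, with a median of 0.05, and the median of the 140 shorter ones was -0.19.

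**Figure D3:**
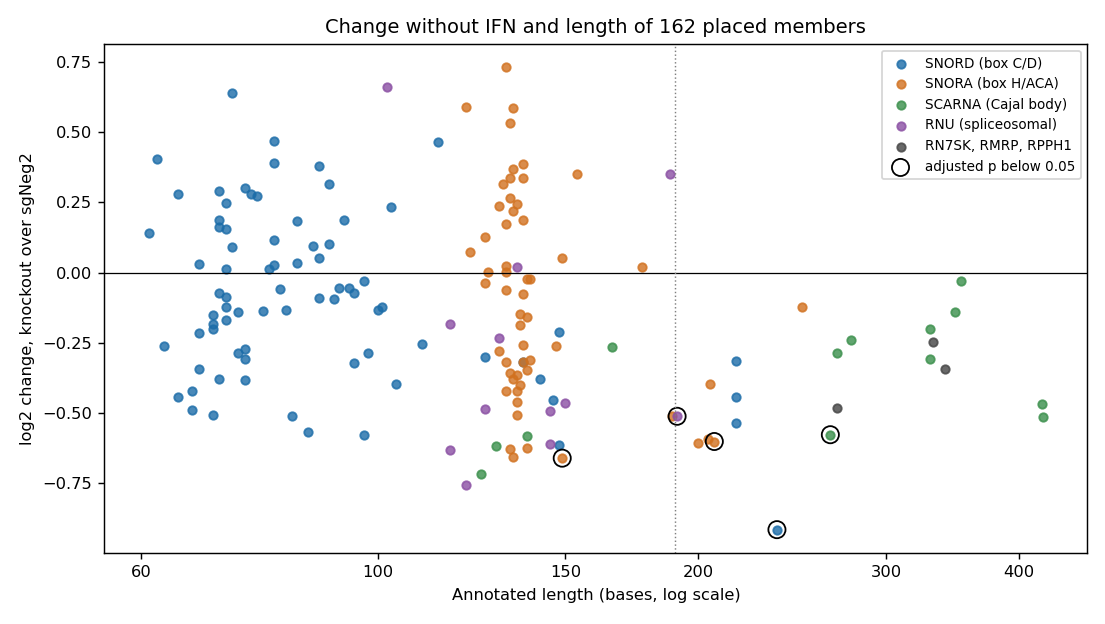
Log2 change of knockout over sgNeg2 without IFN against annotated length in bases (log axis) for 162 members, coloured by class, with the 5 called members ringed. Right of the dotted line at 190 bases all 22 points lie below 0.

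In sg2 against sg1 without IFN, 0 members were called by edgeR, against 0.0304% of all genes tested. At an unadjusted p under 0.05, 3 members were higher and 0 lower, against 883 higher and 993 lower among the 16448 genes tested. DESeq2 called 1, RNU2-2P, which was higher in sg2, where it called 1.38% of all genes higher. Without replicate 1 of sg2, the fit sets replicate 2 of sg2, the library of lowest member share, alone against sg1 with the spread taken from other groups. RMRP, RN7SK and SNORD17 were among the members lower in that library, and the fit cannot tell the library from the guide.

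The hosts of the called members did not pass the test. SNX5, the host of SNORD17, averaged 146 ± 5.05 CPM in the knockout and 155 ± 1.24 CPM in sgNeg2, a log2 change of -0.09 ± 0.07. SNHG3, the host of SNORA73A, changed by -0.13 ± 0.08, ATG16L1 by 0.03 ± 0.08, METTL12 by 0.17 ± 0.29 and WDR74 by -0.18 ± 0.13. The ATG16L1 value was below 0 with other scalings. These values are given side by side, and the difference between member and host was not tested. Over 138 pairs of member and tested host, the median log2 change was -0.12 for members and -0.06 for hosts, with a Spearman's rho of 0.27 across pairs that share hosts and libraries. Of the 81 hosts, 4 rose and 11 fell, where 6.95% of all genes tested rose and 4.38% fell.

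Some genes for proteins that bind these RNAs rose without IFN, where 6.95% of all genes tested rose and 4.38% fell. Of 19 tested snoRNP protein and assembly genes, 4 rose and 0 fell, with a median log2 change of 0.18. With IFN, 0 of the 19 were called by edgeR, with a median of -0.12 against -0.06 over all genes. GAR1, a core H/ACA protein, had 21.7 and 22.3 CPM in sg1 and 18.7 and 25.4 CPM in sg2, against 14.4 and 16.0 CPM in sgNeg2 (log2 change 0.53 ± 0.11, adjusted p = 0.00793). NOP58 averaged 78.3 ± 1.80 CPM in the knockout (SD, n = 4) and 59.1 ± 2.40 CPM in sgNeg2 (n = 2), with a log2 change of 0.41 ± 0.10 (adjusted p = 0.0149 in edgeR). DKC1 and NOP56, the other rises, changed by 0.26 ± 0.07 and 0.22 ± 0.06.

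Of 19 genes for Cajal body and snRNA assembly, 2 rose and 0 fell without IFN, a share near that of all genes. LSM6 averaged 11.7 ± 0.376 CPM in the knockout and 8.87 ± 0.676 CPM in sgNeg2 (log2 change 0.40 ± 0.11). LSM8, a ring protein of U6 RNA, averaged 41.7 ± 2.45 and 33.9 ± 0.0621 CPM in the knockout and in sgNeg2 (0.30 ± 0.09, adjusted p = 0.0498 in edgeR). Of 7 genes of the 7SK particle 2 rose and 0 fell without IFN, LARP7, which protects the 3′ end of RN7SK (0.45 ± 0.12, adjusted p = 0.0251), and HEXIM1, the P-TEFb inhibitor (0.33 ± 0.08, adjusted p = 0.0240). Of 23 genes of snRNA transcription and Integrator, 9 RNase P and MRP proteins and 20 SNHG and GAS5 host transcripts, 0 were called by edgeR. With IFN, 0 genes of the Cajal body and 7SK lists were called. The calls of GAR1, NOP58, LSM6, LSM8, LARP7 and HEXIM1 were each lost without either sgNeg2 library, in fits with 1 library in that group, while the log2 change stayed at 0.46 and 0.57 for GAR1 and at 0.36 and 0.40 for NOP58 (without replicate 1 and without replicate 2). The calls of LSM6 and LSM8 were also lost in 3 of the 4 fits that leave out a knockout library. Those of LARP7 and HEXIM1 were lost without replicate 1 and without replicate 2 of sg1, and that of NOP58 without replicate 2 of sg1.

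IFN libraries held far less of these RNAs. Members took 0.00807 to 0.00964% of counts in the 6 libraries with IFN, and 1.87 to 3.41% in the 6 without. Replication-dependent histone genes, whose transcripts also lack a poly(A) tail, took 0.0329 to 0.0472% and 0.827 to 1.00% of counts in the same sets. The EPZ-5676 libraries held 0.0172 to 0.0177% and the DMSO libraries 0.0143 to 0.0149% in the members, though their sample titles name no IFN. The guide libraries without IFN thus stand apart from both other HuH-7 sets. The set of libraries and IFN coincide within the guide libraries, so IFN and library content cannot be told apart, and no test is given across sets.

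Among the members with a count in both sets, RMRP had the largest ratio between them. It averaged 0.0877 CPM with IFN, against 8844 CPM without, 100830-fold lower on 26 counts in all 6 IFN libraries. RN7SK averaged 0.894 CPM with IFN and 11621 CPM without. SCARNA2 averaged 0.111 CPM with IFN and 204 CPM without, and SCARNA10 0.366 CPM with IFN and 454 CPM without. SNORD3D, RNU5E-1, RNU12, RNU6ATAC, RNU5D-1 and SNORD111B had no count with IFN, and for SNORD3D the level was at least 21421-fold lower against 3 counts over the group, a bound that covers counting error only.

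Shorter members differed less between the sets. The median ratio of the level without over that with IFN was 1006 for members of 190 bases or more, 10.3 for those of 120 to below 190 bases and 6.01 for shorter ones, with bounds used where a member had no count. SNORD96A averaged 6.73 CPM with IFN and 6.65 CPM without, and SNORD80, in GAS5, 4.86 CPM with IFN and 4.42 CPM without. These 6 members, SNORD96A, SNORD80, SNORD16, SNORD36A, SNORD23 and SNORD35B, were higher with IFN in this ratio; they were singled out after their values had been seen. Across 162 members the rho between the levels per kilobase in both sets was 0.05.

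**Figure D4:**
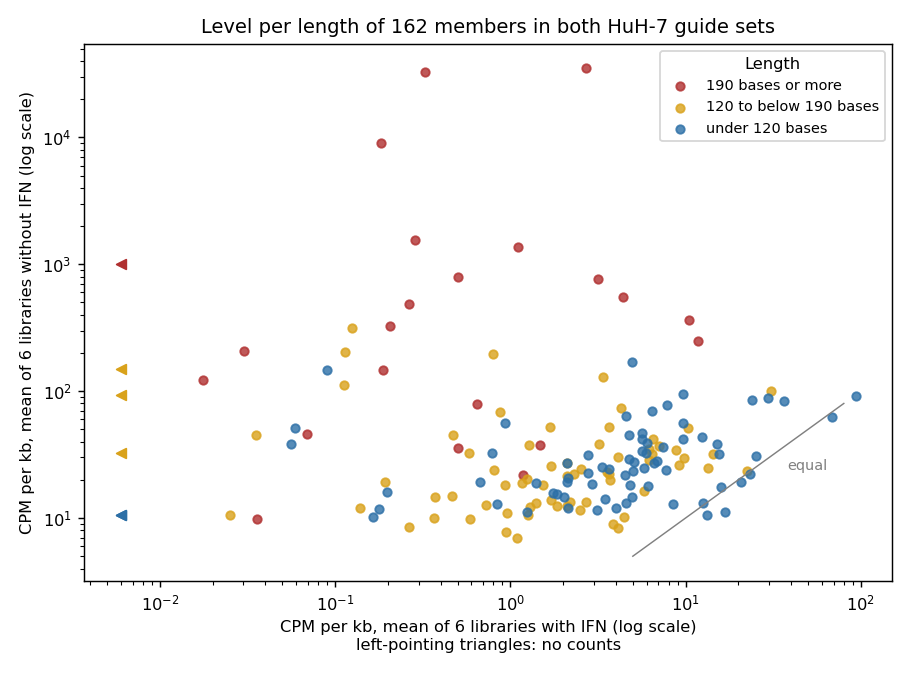
Mean CPM per kilobase in the 6 HuH-7 libraries with IFN (horizontal) and without IFN (vertical), both on log axes, for 162 members coloured by length, with left-pointing triangles for members that had no count with IFN and a line of equal levels. Members of 190 bases or more had a median of 0.413 CPM per kilobase with IFN and 345 without.

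In the knockout with IFN, 1 member rose and 5 fell among 167 (3.59%), against 7.11% rising and 5.27% falling over all genes tested. The median log2 change was -0.17 over members and -0.06 over all genes. The knockout libraries lay entirely below the sgNeg2 libraries for 29 members (17.4%, against 19.8% of all genes tested) and entirely above for 2 (1.20%, against 13.1%). Members with 10 or more counts over the 6 libraries numbered 144, so many of the 167 had little power. SNORD14A, a U14 snoRNA, which in yeast is needed for 18S ribosomal RNA, had 0.501 and 0.505 CPM in sg1 and 0.385 and 0.218 CPM in sg2, against 0.804 and 0.885 CPM in sgNeg2. The groups did not overlap (log2 change -1.06 ± 0.28, adjusted p = 0.0229). SNORA52, in RPLP2, had 0.721 and 0.447 CPM in sg1 and 0.526 and 0.612 CPM in sg2, against 1.30 and 1.04 CPM in sgNeg2 (-1.02 ± 0.27, adjusted p = 0.0264).

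SNORD26, in SNHG1, had 0.380 and 0.447 CPM in sg1 and 0.420 and 0.437 CPM in sg2, against 0.851 and 0.821 CPM in sgNeg2 (log2 change -0.98 ± 0.27, adjusted p = 0.0299). SNORD30, also in SNHG1, and SNORD80, in GAS5, fell with log2 changes of -0.83 ± 0.25 and -0.48 ± 0.14. SNHG1 and GAS5 fell too with IFN, with log2 changes of -0.37 and -0.36, while RPS13 and RPLP2 stood at -0.06 and 0.03. SCARNA5 was the rise, with 17 counts over the 4 knockout libraries (2 to 7 in each) and 0 over both sgNeg2 libraries. That is at least 2.46-fold higher against 3 counts over the sgNeg2 group. It passed the filter of the shared fit through the libraries without IFN, where it had 1828 to 2728 counts in each. Its call held in 7 of 14 alternatives, so this rise rests on few counts. DESeq2 called RN7SK as a rise too, where edgeR had a log2 change of 0.90 ± 0.38 (adjusted p = 0.151) with overlap. Without replicate 2 of sgNeg2 0 members were called (2 higher and 17 lower at an unadjusted p under 0.05), and without replicate 1 of sgNeg2 only SNORD11, which rose. Without replicate 1 of sg2 3 were called and without replicate 2 of sg2 3. The 6 IFN libraries fitted alone called 0 of 113 tested members in edgeR (1 higher and 8 lower unadjusted).

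The interaction of knockout and IFN called 0 members in edgeR, against 0.505% of all genes tested. It came from the same shared fit, so its counts also include members that the IFN libraries alone would not admit. At an unadjusted p under 0.05, 7 members were higher and 12 lower, against 733 higher and 1381 lower among the 16448 genes tested. DESeq2 called 1, RN7SK, with a positive interaction, where it called 1.51% of all genes higher and RN7SK counts with IFN were 267 over 6 libraries.

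EPZ-5676 was compared with DMSO in separate libraries. The files of this set list 140 members, because a symbol with no read in any 1 library is not listed, and 123 were tested. Of these 6 rose and 1 fell (4.88 and 0.813%), against 15.1% rising and 18.6% falling over all genes tested. The median log2 change was 0.27 over members and 0.00912 over all genes. Above 0 were 94 of 123 members and 7842 of the 15023 genes tested. The EPZ-5676 libraries lay entirely above the DMSO libraries for 30 members (24.4%, against 21.3% of all genes tested) and entirely below for 4 (3.25%, against 22.5%). The share of counts in SNORD genes was 0.0101, 0.0103 and 0.0104% in EPZ-5676 libraries, against 0.00873, 0.00855 and 0.00845% in DMSO libraries, with no overlap.

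SNORA9, a box H/ACA snoRNA in SNHG15, had 2.34, 1.92 and 2.34 CPM with EPZ-5676, against 1.58, 1.14 and 1.09 CPM with DMSO. The groups did not overlap (log2 change 0.79 ± 0.23, adjusted p = 0.00452). SNORA33, in RPS12, had 3.60, 3.79 and 4.26 CPM with EPZ-5676, against 2.46, 2.31 and 2.79 CPM with DMSO (0.62 ± 0.17, adjusted p = 0.00251). SNORD78, in GAS5, had 1.12, 1.18 and 0.701 CPM with EPZ-5676, against 0.476, 0.831 and 0.243 CPM with DMSO. Its groups overlapped (0.97 ± 0.36, adjusted p = 0.0304). The call was lost in 5 of 10 alternatives, and the log2 change was 0.62 without replicate 3 of DMSO and 1.48 without replicate 2 of DMSO (adjusted p of 0.00213 to 0.220 over the alternatives in edgeR and DESeq2). SNORD45B, SNORA62 and SNORA32 rose by 0.69 ± 0.27, 0.62 ± 0.24 and 0.53 ± 0.20. The call of SNORD45B held in 6 of 10 alternatives, with log2 changes of 0.54 to 0.96. Among the fits that leave out 1 library, SNORA62 was called only without replicate 3 of DMSO. SNORA32 was called only there and without replicate 3 of EPZ-5676. SNORA9 and SNORA33 were called in each of these fits. RMRP fell, with 8, 10 and 10 counts with EPZ-5676, against 30, 32 and 38 counts with DMSO (-1.92 ± 0.47, adjusted p = 0.000655). Without replicate 2 of EPZ-5676, 3 members rose and RMRP fell.

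Of the members that fell in the knockout without IFN, SNORD17 had 3.03, 3.13 and 3.36 CPM with EPZ-5676, against 3.81, 2.82 and 2.82 CPM with DMSO, with overlap and a log2 change of 0.01 ± 0.17. SNORA57 changed by 0.07 ± 0.31 and SNORA73A by 0.51 ± 0.24 (adjusted p = 0.894 and 0.0977), SCARNA6 was not listed, and RNU2-2P did not pass the filter. Of 19 SNHG and GAS5 host transcripts, 6 rose and 0 fell with EPZ-5676, among them GAS5 (0.20 ± 0.02) and SNHG1 (0.23 ± 0.03), where 15.1% of all genes tested rose and 18.6% fell. Of 19 snoRNP genes 2 rose and 5 fell, both shares near those of all genes.

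**Figure D5:**
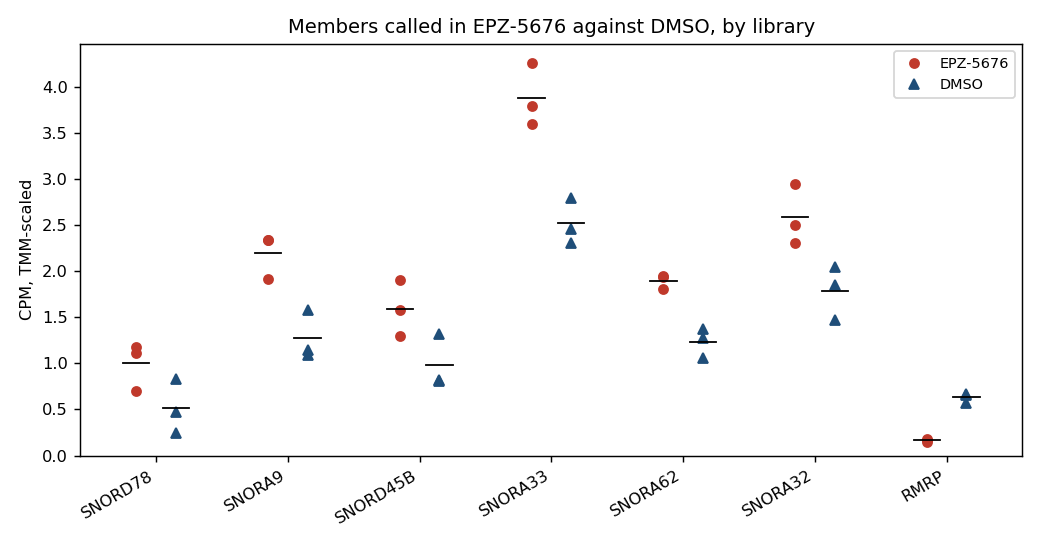
CPM in each library for the 7 members called in EPZ-5676 against DMSO, with circles for EPZ-5676, triangles for DMSO and black bars for means of 3 libraries. RMRP averaged 0.165 CPM with EPZ-5676 and 0.632 CPM with DMSO, while the 6 snoRNAs were higher with EPZ-5676, with overlap in SNORD78 and SNORD45B.

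Mouse libraries held little of these RNAs. A mouse gene of the same symbol existed for 65 members, and 20 were tested in Hepa1-6, 17 in Hep53.4 and 29 in LLC. In each line 0 were called by edgeR and by DESeq2, against 32.8% of all genes tested in Hepa1-6, 39.2% in Hep53.4 and 33.5% in LLC. At an unadjusted p under 0.05, edgeR had 1 higher in Hepa1-6, 1 lower in Hep53.4 and 1 lower in LLC. Of all genes tested, 5238 of 12493 in Hepa1-6, 5697 of 12227 in Hep53.4 and 5240 of 12225 in LLC were under that threshold. Replicate 2 of sg1 in Hepa1-6 stood apart, with 4250 counts of Rmrp and 6364 of Rpph1, against 18, 10 and 56 and 27, 14 and 104 in the other Dot1l knockout libraries of that line. Its sgNeg2 libraries had 136 and 381 counts of Rmrp. The log2 change of Rmrp was 2.12 ± 2.81 in Hepa1-6, 0.13 ± 0.56 in Hep53.4 and -0.87 ± 1.00 in LLC. Snord17 had 94 counts in replicate 2 of sg1 in Hepa1-6, against 1, 4 and 18 in the other Dot1l knockout libraries and 10 and 5 in sgNeg2 libraries. Its log2 change was -0.98 ± 0.50 in LLC (adjusted p = 0.142), and it was not tested in Hep53.4.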

How the data were processed

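RNA was sequenced from 36 libraries, and each deposited file gives whole-number counts by gene symbol, which per the labels carry no normalization by the authors. Trim Galore, HISAT2 2.2.1, SAMtools 1.9 and DESeq2 1.36.0 are named in the submitters' processing notes, with hg38 and mm10 as builds. How genes were counted (program, annotation, strand) and how RNA was selected is not stated there, and per the labels' protocols total RNA and a single kit served all libraries. Lines holding no symbol and count (1721 in each Hepa1-6 sgNeg2 file, 1 in each Hep53.4 sgNeg2 file) were dropped.

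Counts were fitted in R 4.3.3 with edgeR 4.0.16 (filterByExpr with a minimum count of 10 and total of 15, TMM scaling, robust quasi-likelihood fits). All 12 guide libraries of HuH-7 shared a fit with sg1 and sg2 pooled as knockout, and the drug set and each mouse line had their own. Calls needed an adjusted p below 0.05 over all genes tested in the comparison. CPM values are TMM-scaled, except in the rule for members. Standard errors come from the F statistic. Libraries were grouped by the labels. The members, lists and rule for named genes were chosen with earlier results of these data known. Named are RN7SK, RMRP and RPPH1, the 4 highest members of each class, called members of 5 CPM or more without IFN (the 3 largest changes per direction and class) with their hosts, the 3 largest called changes per direction in other comparisons, the 2 symbols on each side of the threshold, DOT1L, and the 2 called genes of each list with the largest change. Other genes named were chosen after their values were seen. Replicate numbers are shared between groups in the labels, but correlations of deviations between libraries of 1 number were -0.06 to 0.06, so they were not taken to pair libraries. Positions come from RefSeq (161 members) or GENCODE 29 (1), hosts from GENCODE 29, and 151 members have a transcript sequence there. Coordinates printed are those of GENCODE 29 on GRCh38, the build that hg38 names. Alternatives were RLE scaling, DESeq2 1.42.0, no filter, a replicate block, each library left out, smaller fits, guides apart and scaling without members and histone genes. The test was checked on simulated data.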

Additional observations from a re-analysis of the deposited data

Results flagged for a closer look

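In groups of 4 knockout libraries, a library far from the other 3 was seen in 12 of 55 groups of values. Chance gives about 1 in 20 for independent groups, but these groups share libraries and overlap in their genes, so that rate is no yardstick for the 12. In HuH-7 without IFN, replicate 2 of sg2 was the low library for RPPH1 (1973 CPM, 0.217% of counts), SNORD17 (37.6 CPM), SCARNA12 (48.9 CPM), the SCARNA class (0.0835% of counts) and all members (1.87% of counts). In the other direction, SNORA53 was highest in replicate 2 of sg2 (23.2 CPM), and SNORD3D was highest in replicate 1 of sg2 (224.0 CPM).

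In Hepa1-6, replicate 2 of sg1 was the high library for all members of the same symbol (0.0249% of counts), Rmrp (0.00884%) and Rpph1 (0.0132%). In Hep53.4, replicate 2 of sg2 was the high library for Rmrp (0.000103% of counts, 44 counts).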

How the results depend on the processing

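In the knockout without IFN, where 5 members were called, the count was 10 with RLE scaling, 15 with DESeq2, 10 with scaling factors that leave out members and histone genes, 12 with the 6 libraries alone, 9 for sg2 alone and 12 with guides as groups. With replicate number as a block it was 3 (SCARNA6, SNORA57 and SNORD17), and it was 1 without the libraries of lowest and highest member share, an alternative chosen after seeing the data. Leaving out 1 library gave 0 to 8. In the knockout with IFN, where 6 were called, the 6 libraries alone gave 0, sg2 alone 17 and guides as groups 11, and leaving out 1 library gave 0 to 7. The median of the members there was -0.30 for sg2 alone, against -0.17. DESeq2 called 1 member in the interaction and 1 in sg2 against sg1, where leaving out 1 library gave 0 to 14. With EPZ-5676 leaving out 1 library gave 4 to 7. Without a filter 2 mouse genes were called in Hepa1-6 and 1 in LLC, and leaving out 1 library gave 0 to 1 in Hepa1-6, 0 to 1 in Hep53.4 and 0 to 2 in LLC. A block by replicate number moved no other count of calls by over 1.5 times. The SNORD ratio of shares, 0.775, was 0.671 to 0.916 with 1 library left out. With a threshold of 5 CPM there were 53 members. The cause of these differences was not tested. Fits that leave libraries out also have fewer samples, and the part of this in the counts was not tested either.

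Direction of the median held in all settings for the knockout without IFN (-0.20 to -0.14 with 1 library left out) and for EPZ-5676 (0.23 to 0.27). With 1 library left out, the log2 change of SNORD3C was -0.62 to 0.0247 and that of SNORA53 -0.35 to 0.10, both turned above 0 without replicate 2 of sgNeg2. The log2 change of the host ATG16L1 was near 0, and it was -0.0104 with RLE scaling, -0.0103 with DESeq2, -0.0187 with scaling factors that leave out members and histone genes, -0.0715 without the libraries of lowest and highest member share, and -0.0908 to 0.10 with 1 library left out.

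In the IFN, EPZ-5676 and mouse libraries members have few counts because their share is low, although these libraries are deeper than those without IFN. A call that is missing does not show that a member did not change. With 2 sgNeg2 libraries per setting, leaving out either leaves 1, and its spread is then assumed to be like that of the other groups.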
